A study of Homo sapiens with 8 samples.

Results

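APC, AXIN1, FZD2, TEAD1 and AMOTL2 are components of the Wnt and Hippo signalling pathways, and their N6-methyladenosine (m6A) peaks were compared between METTL3 knockdown and control BCPAP cells, a line from a human papillary thyroid carcinoma. The members were every peak assigned to one of these 5 gene symbols, which gave 9 rows among the 10987 of the authors' deposited table, in 9 separate places. APC had 4 peaks, FZD2 had 2, and AXIN1, TEAD1 and AMOTL2 had 1 each. The study made 8 libraries in 4 groups of 2, namely input and anti-m6A immunoprecipitate RNA from control cells and from METTL3 knockdown cells; METTL3 is the enzyme subunit that writes m6A in the nucleus. Both knockdown libraries of a type are titled by different constructs, sh1 and sh3, and the controls are titled Ctrl. Titles of the sh1 libraries share the letter A with a control, and those of sh3 share the letter B with the other control. Construct and letter can therefore not be told apart, and the titles do not explain the letters. The sources used here do not give the control construct, the time after knockdown or whether the cultures were separate. All groups come from the same cell line.

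The deposited table holds 1 comparison, which gives each peak a p-value, a log2 fold change and an FDR (false discovery rate), and no value for any single library. No replicate spread can therefore be attached to any value, the depth of each library is unknown, and agreement between sh1 and sh3 cannot be examined. A peak was called at an FDR under 0.05. Rises and falls are those of m6A peaks, and transcript levels of the genes were not analysed here. The header leaves the reference condition unnamed, so "higher" and "lower" rest on reading the fold change as knockdown over control. No peak of METTL3 is listed (0 rows). Among thyroid follicular cell markers, PAX8 and HHEX had a peak and TG, TSHR, NKX2-1, FOXE1, SLC5A5 and DUOX2 had none, which says nothing of their expression because the table lists m6A peaks.

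In the canonical Wnt pathway, ligands bind Frizzled receptors, and the scaffold proteins AXIN1 and APC hold beta-catenin in a complex that marks it for degradation until that signal arrives. In the Hippo pathway, a kinase cascade and the angiomotin family keep the coactivators YAP and TAZ out of the nucleus, where they would otherwise act through TEAD transcription factors. Both pathways control growth and are often altered in carcinomas. m6A is placed on mRNA within a short consensus around an AC dinucleotide, most often near stop codons and in 3' UTRs, and reader proteins that bind it affect splicing, decay and translation.

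The RefSeq table held start windows (250 bases before to 50 after a start) for APC, AXIN1 and AMOTL2. It held none for FZD2 and TEAD1, so their peaks could not be checked. Of the other peaks, only that of AMOTL2 overlapped a window of its gene. Its letters are shown as the part of the peak that could be read. The stretch below is the 5'-most 30 bases of that peak in the direction of the gene, with matches to the m6A consensus in capitals.
AMOTL2 5' UTR peak, chr3:134374509-134374538, minus strand, RefSeq GRCh38.p14: gaggggGAACCtgAAACTctcacattcctg
The consensus was searched as words of 5 letters, with a base other than C, then A or G, then AC, then a base other than G, which makes 18 words. In the 141 bases shared by the peak and the window there were 4 matches on the strand of the gene and 0 on the other strand. Those in the stretch above are the 2 nearest the 5' end of the peak, and the other 2 read GAACA. No match overlapped another. The word GGACT, the form most often methylated, was found 0 times on either strand. Of 35116 RefSeq start windows cut to the same 141 positions, 82.5% held at least 1 consensus word, with a median of 2 words, and 13.0% held GGACT. The stretch lies before 1 RefSeq start of AMOTL2 (134374447) and after another (134375417), and the authors' annotation gives the peak the label 5' UTR. A match is a description of these letters and not a measured methylation site.

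Of the 9 peaks, 3 were called, on FZD2, AXIN1 and TEAD1, and the called changes went in both directions by gene and by region label. The peaks labelled 5' UTR of FZD2 and AXIN1 were higher after knockdown, by 1.28-fold and 1.21-fold per the authors' deposited table, and the peak labelled 3' UTR of TEAD1 was lower, at 0.661-fold per the authors' deposited table. The 4 APC peaks, the 3' UTR peak of FZD2 and the 5' UTR peak of AMOTL2 did not pass. Over all peaks 17.1% were called, 10.6% as lower and 6.52% as higher. With so few peaks the 3 of 9 is a count for these genes and was not tested against that share.

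**Figure D1:**
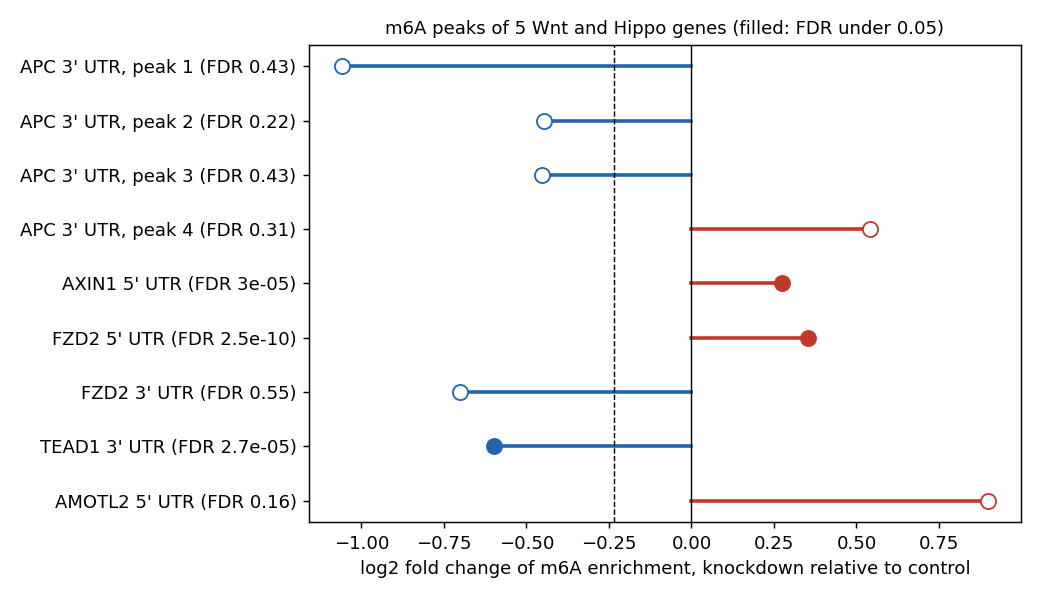
Log2 fold change of m6A enrichment (x axis) for each of the 9 peaks, with the deposited FDR in the row label; filled points have an FDR under 0.05 and the dashed line is the median of all peaks (-0.24). The filled points are FZD2 and AXIN1 to the right and TEAD1 to the left, while larger values of APC and AMOTL2 are open.

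FZD2 encodes Frizzled 2, a seven-transmembrane receptor for Wnt ligands, and had the smallest FDR of the members. Its 5' UTR peak (ENSG00000180340, chromosome 17, 44557484 to 44559613) was higher at a log2 fold change of 0.35, with p = 1.26e-12 and an FDR of 2.51e-10 per the authors' deposited table. By FDR this peak ranks 96 of the 10987 per the authors' deposited table. The change itself was small for its class, since 62.1% of the 203 called higher 5' UTR peaks were larger in size. The span begins at the first base of the RefSeq gene and covers 2130 bases, 56.4% of the gene's 3779, so the label 5' UTR names where it begins and not its full extent.

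The second FZD2 peak lies 838 bases further on, in the 3' UTR (44560452 to 44560512). It spans 61 bases and ends 750 bases before the end of the gene. Its log2 fold change was -0.70 with p = 0.381 and an FDR of 0.551 per the authors' deposited table. Within FZD2 the deposited values of both peaks thus have opposite signs, but the 3' UTR value did not pass, and their difference was not tested. Because the first peak reaches far beyond its start, this is a contrast of labelled peaks and not of the transcript's ends. Named genes with peaks under both UTR labels numbered 558, taking the peak of smallest p under each label. Of these, 170 had a positive 5' UTR value and a negative 3' UTR value, and 91 had the reverse. FZD2 is 1 of 22 genes in which the 5' UTR peak was called as higher and the 3' UTR peak had a negative value that was not called, and in 12 further genes both were called in those directions.

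AXIN1, the scaffold on which the beta-catenin destruction complex assembles, was higher in its single peak. The log2 fold change was 0.28, with p = 3.98e-07 and an FDR of 3.02e-05 per the authors' deposited table (ENSG00000103126, chromosome 16, 293687 to 347072). This span of 53386 bases includes introns and takes up 81.8% of the RefSeq gene, which lies on the minus strand. In the direction of the gene it begins 5651 bases after the start and ends 6247 bases before the end, and no other peak of the table and no other RefSeq gene overlaps it. Which exons inside the span carry the signal cannot be read from it. Of the called higher 5' UTR peaks, 74.9% had a larger change than AXIN1. Both called increases, of FZD2 and AXIN1, are below 0.5 on the log2 scale, and neither would pass a rule that also asked for that size.

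APC, the tumour suppressor that binds beta-catenin and AXIN1 in the same complex, had 4 peaks, all labelled 3' UTR. None of the 4 passed, and their deposited values did not share a direction. From the most upstream peak to the most downstream, the log2 fold changes were -1.06, -0.45, -0.45 and 0.54 per the authors' deposited table. The FDRs in the same order were 0.432, 0.219, 0.430 and 0.315 per the authors' deposited table, and the second peak had the smallest p, 0.0457. The most negative value thus stood on the peak with the largest FDR of the 4.

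The APC peaks (ENSG00000134982, chromosome 5) lie in the last part of a gene of 138742 bases. They run from 112828965 to 112829085, from 112835130 to 112838116, from 112839045 to 112839255 and from 112840184 to 112840454. The second, of 2987 bases, is the widest, and the others span 121, 211 and 271 bases. The gaps between neighbours are 6044, 928 and 928 bases, and the last peak ends 5785 bases before the end of the RefSeq gene. Most of the APC protein is encoded by a long last exon, so a 3' UTR label given through a shorter transcript need not be the 3' UTR of the main one, and this was not resolved here. The first 3 peaks were annotated through a transcript that starts, by the deposited distance, at 112707522, near the upstream RefSeq start of the gene at 112707498. The 1 peak with a positive value was annotated through another transcript, whose start at 112737885 equals the second RefSeq start of APC. These labels reflect which transcript the annotation chose and do not say from which transcript the reads came.

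**Figure D2:**
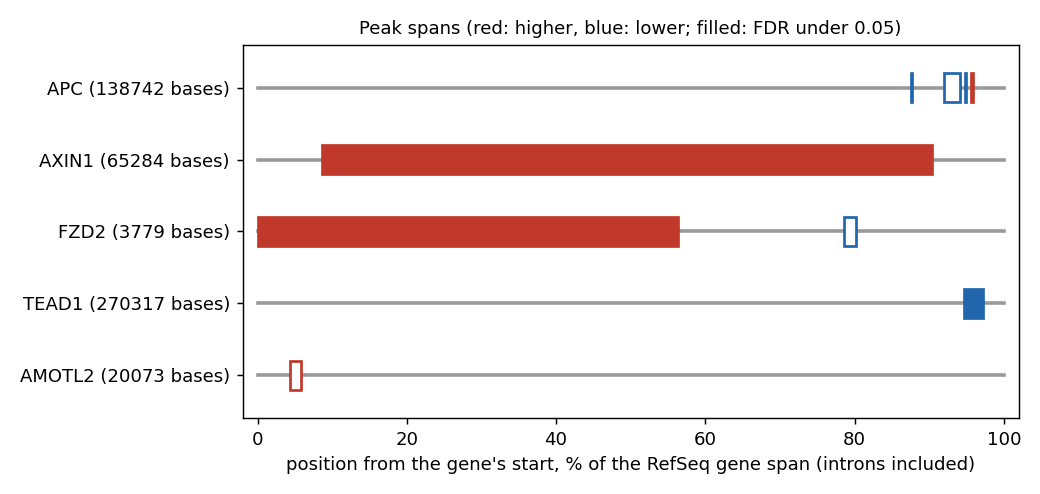
Position of the 9 peak spans along each gene, as a percentage of its RefSeq span read from its start (x axis; introns included); red spans are higher and blue lower, and filled spans have an FDR under 0.05, while the narrow APC spans are all open. The AXIN1 span covers 81.8% of its gene and the FZD2 5' UTR span 56.4%, while the APC and TEAD1 spans lie near the downstream end.

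TEAD1, a DNA-binding partner through which YAP and TAZ reach their target genes, carried the 1 called decrease. Its single peak, labelled 3' UTR (ENSG00000187079, chromosome 11, 12930283 to 12937395), had a log2 fold change of -0.60, with p = 3.47e-07 and an FDR of 2.69e-05 per the authors' deposited table. It lies 255862 bases from the start of a gene of 270317 bases and ends 7342 bases before its end, and its span of 7113 bases can include an intron. Of the 745 called lower 3' UTR peaks, 27.9% had a larger change. By FDR the TEAD1 peak ranks 273 and the AXIN1 peak 281 of all peaks per the authors' deposited table.

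AMOTL2, angiomotin-like 2, binds YAP at cell junctions and is itself a known target gene of YAP and TEAD. Its peak in the 5' UTR (ENSG00000114019, chromosome 3, 134374242 to 134374538) had the largest positive value of the members, a log2 fold change of 0.90 or 1.86-fold, with p = 0.0263 and an FDR of 0.160 per the authors' deposited table. It was not called, although its value is larger than those of FZD2 and AXIN1. The peak spans 297 bases and begins 879 bases after the upstream start of the gene, and it holds the letters printed above.

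Grouped by region label, the 3 member peaks labelled 5' UTR all had positive values, from 0.28 to 0.90 per the authors' deposited table. The 2 called as higher, AXIN1 and FZD2, span 81.8% and 56.4% of their genes. The label therefore does not place their signal in a 5' UTR. Of all 5' UTR peaks, 51.1% had negative values, and 8.00% were called as higher and 8.79% as lower, 16.8% in all. Of the 6 member peaks labelled 3' UTR, 5 had negative values, as had 63.4% of all 3' UTR peaks. Of the same 6, 1 was called as lower, a share of 16.7% against 15.9% of all 3' UTR peaks, so this count is near the background. The 6 include the 4 APC peaks, whose label need not be the 3' UTR of the main transcript. No member peak with this label was called as higher, as were 5.94% of all 3' UTR peaks, and 21.8% of those were called in either direction. The median log2 fold change was -0.14 for all 5' UTR peaks and -0.30 for all 3' UTR peaks per the authors' deposited table. The members with those labels had medians of 0.35 and -0.53. After the median of all peaks, -0.24, was subtracted, each of the 9 values kept its sign, with FZD2 at 0.59 and -0.47, AXIN1 at 0.51, TEAD1 at -0.36 and AMOTL2 at 1.13. The APC values then were -0.83, -0.21, -0.22 and 0.78.

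**Figure D3:**
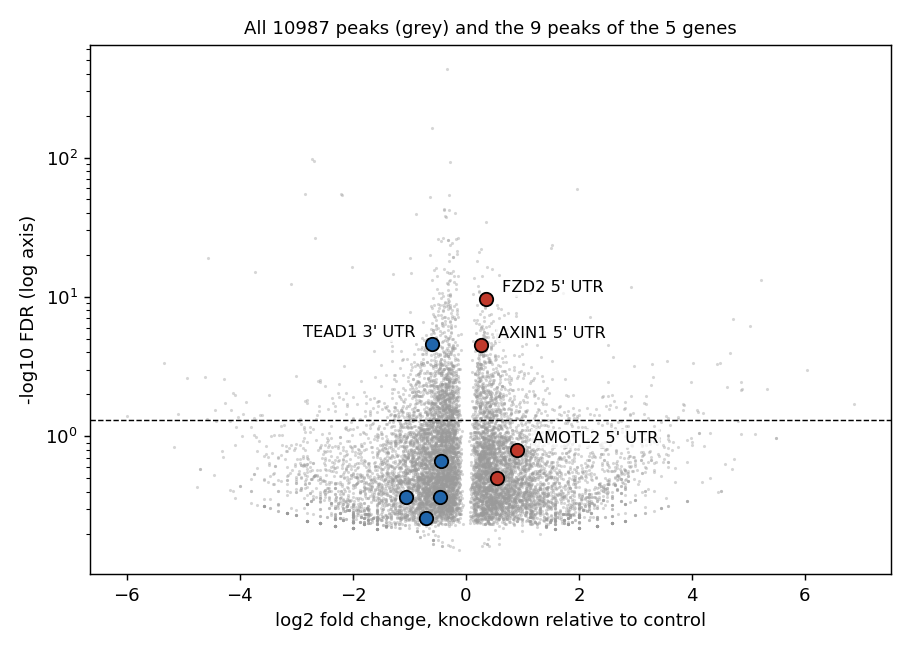
Log2 fold change (x axis) against -log10 of the deposited FDR (y axis, log scale) for all 10987 peaks in grey, with the 9 member peaks in red (positive) or blue (negative) and the FDR of 0.05 as a dashed line. FZD2, TEAD1 and AXIN1 stand above the line at small fold changes, and AMOTL2 at 0.90 stands below it.

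The called member peaks were wide and most of the others narrow. TEAD1, AXIN1 and the 5' UTR peak of FZD2 span 2130 to 53386 bases, while the 6 peaks that did not pass span 61 to 2987. Across the table the share of called peaks went with the genomic span: 3.50% of the peaks of 58 to 150 bases were called, 11.6% of those of 151 to 300, 19.6% of those of 301 to 1000, 29.5% of those of 1001 to 2999 and 26.2% of those of 3004 and more. The median size of the log2 fold change went the other way, from 1.05 in the narrowest class to 0.45 in the widest. The part of span in the calls of these genes was not tested.

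**Figure D4:**
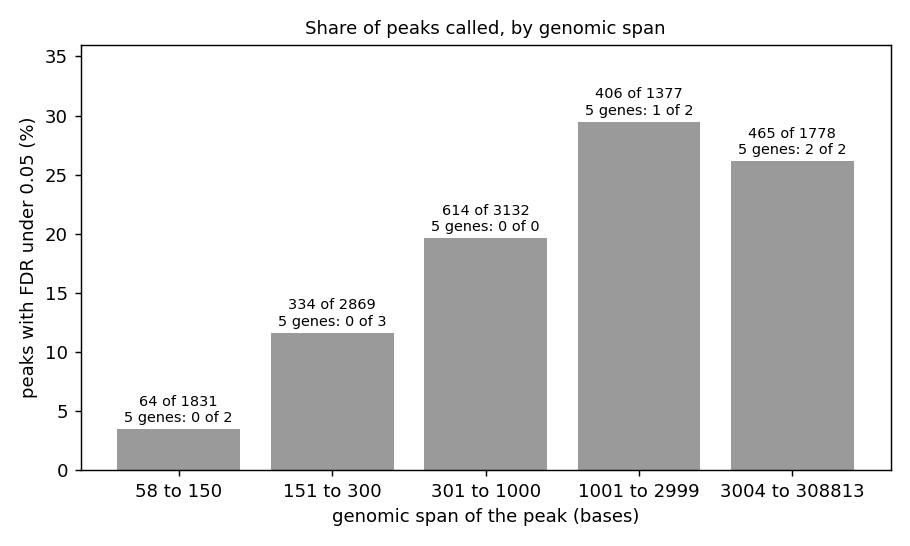
Share of peaks with an FDR under 0.05 (y axis, %) in 5 classes of genomic span in bases (x axis), with the counts behind each bar for all peaks and for the 5 genes. The share is lowest, at 3.50%, for the narrowest peaks, where 0 of 2 member peaks were called, and both member peaks in the widest class were called.

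Close relatives of the 5 genes that had a peak did not have a called one. Of the other Frizzled receptors, FZD1, FZD3, FZD4 and FZD5 had 1 peak each, with log2 fold changes of 0.91, -0.53, 2.22 and -0.34 and FDRs of 0.410, 0.390, 0.521 and 0.522 per the authors' deposited table. AXIN2, the inducible relative of AXIN1, had -1.39 in its 3' UTR with an FDR of 0.124 per the authors' deposited table. TEAD4 had -0.42 in a 5' UTR peak with an FDR of 0.553, and AMOT, the founding angiomotin, had -0.75 in its 3' UTR with an FDR of 0.397 per the authors' deposited table. Whether these values differ from those of FZD2, AXIN1, TEAD1 and AMOTL2 was not tested.

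Other Wnt genes were taken from a list of 94 symbols in 4 role groups, which includes the members. Of these, 45 genes had 69 peaks, of which 14 (20.3%) were called, 8 lower and 6 higher, against the 17.1%, 10.6% and 6.52% of all peaks. The median log2 fold change of these 69 peaks was -0.33, against -0.24 for all peaks. Without APC, AXIN1 and FZD2, 12 of 62 peaks were called, 8 lower and 4 higher.

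Of 5 genes with peaks in the group of ligands, secretion and secreted inhibitors, WLS, which carries Wnt ligands to the cell surface, fell in its 5' UTR at -0.55 and in its 3' UTR at -0.43, with FDRs of 1.17e-05 and 0.000257 per the authors' deposited table. WLS exon peaks at 0.87 and 1.32 did not pass, with FDRs of 0.482 and 0.0871 per the authors' deposited table. Among 10 receptor and receptor turnover genes, FZD2 rose and LGR4, a receptor for R-spondins, fell at -0.54 with an FDR of 0.0479 per the authors' deposited table.

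In the Dishevelled and destruction complex group, 6 of 31 peaks on 19 genes (19.4%) were called, 3 lower and 3 higher, a share near the 17.1% of all peaks. BTRC and FBXW11, the paired F-box proteins that recognise phosphorylated beta-catenin for ubiquitination, both fell in their 3' UTRs, at -0.45 and -0.81 with FDRs of 0.0123 and 0.0162 per the authors' deposited table. PPP2R5E, a regulatory subunit of the phosphatase PP2A, fell at -0.46 with an FDR of 0.000813 per the authors' deposited table. Higher peaks were those of AXIN1 and of CSNK1A1, the kinase that primes beta-catenin for GSK3. CSNK1A1 rose at 0.18 in its 5' UTR and at 0.68 in a 3' UTR peak, with FDRs of 0.0263 and 0.0398 per the authors' deposited table. Its other peaks did not pass: 1 that overlaps the latter had 0.37 with an FDR of 0.216, an exon peak had 1.34 with an FDR of 0.157 and a separate 3' UTR peak had -0.33 with an FDR of 0.0912 per the authors' deposited table. GSK3A and GSK3B, the kinases of the complex, had -0.66 and -0.29 with FDRs of 0.218 and 0.256 per the authors' deposited table; both were chosen after their values were seen.

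Of 16 peaks on 11 genes for beta-catenin and its nuclear partners, 2 were lower and 2 higher (12.5% each), where 10.6% of all peaks were lower and 6.52% higher. The coactivators BCL9 and BCL9L, which bind beta-catenin, both rose in 3' UTR peaks, at 0.26 and 0.20 with FDRs of 0.0316 and 1.00e-18 per the authors' deposited table. Another 3' UTR peak of BCL9 had -0.88 with an FDR of 0.278 and the coactivator PYGO1 had -0.70 with an FDR of 0.0871, neither called, per the authors' deposited table. The corepressors TLE4 and CTBP1 both fell, at -0.59 in the 5' UTR and -0.42 in the 3' UTR with FDRs of 0.0234 and 0.00776 per the authors' deposited table. The other CTBP1 peaks did not pass, with 0.30 and 0.74 in the 5' UTR and -1.17 in the 3' UTR at FDRs of 0.507, 0.169 and 0.219 per the authors' deposited table.

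The Hippo list held 52 symbols, 2 of them older names of other entries, and 26 genes had 37 peaks. Of these peaks 8 (21.6%) were called, 3 lower and 5 higher, against 17.1%, 10.6% and 6.52% over all peaks. The median log2 fold change of the Hippo peaks was 0.28, where all peaks had -0.24 and all exon peaks 0.23. Without TEAD1 and AMOTL2, 7 of 35 were called, 2 lower and 5 higher. FAT4 and DCHS1, giant protocadherins that bind each other between cells, had the largest called values of the list, higher in exons at 3.29 and 1.97 with FDRs of 0.000501 and 0.0398 per the authors' deposited table. Other FAT4 exon peaks, at 1.92 and 2.88, did not pass, with FDRs of 0.216 and 0.244 per the authors' deposited table. SLMAP and STRN3 belong to the phosphatase complex that counters the Hippo kinases, and SLMAP rose at 0.28 in the 5' UTR while STRN3 fell at -0.81 in the 3' UTR, with FDRs of 0.00525 and 0.00145 per the authors' deposited table. An exon peak of STRN3 had -0.74 and did not pass, with an FDR of 0.340 per the authors' deposited table. TAOK3, an upstream kinase, fell in an exon at -0.31 with an FDR of 0.000871 per the authors' deposited table. After the median of all peaks was subtracted, the TAOK3 value was -0.07. Of the 8 called Hippo peaks, 0 changed sign under that subtraction.

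Among the coactivators, their partners and the TEAD factors, TEAD1 fell and LIMD1, a LIM protein that binds the LATS kinases, rose at 0.28 with an FDR of 0.00214 per the authors' deposited table. YAP1 and WWTR1, which encodes TAZ, each had 1 peak that did not pass, at -0.38 and 2.58 with FDRs of 0.352 and 0.578 per the authors' deposited table; they were chosen after their values were seen. Of 5 peaks on 4 YAP and TAZ target genes, 1 was called as higher and 0 as lower per the authors' deposited table, which with so few peaks says little beside the 6.52% and 10.6% of all peaks. The AMOTL2 peak described above, which was not called, is counted here too.

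**Figure D5:**
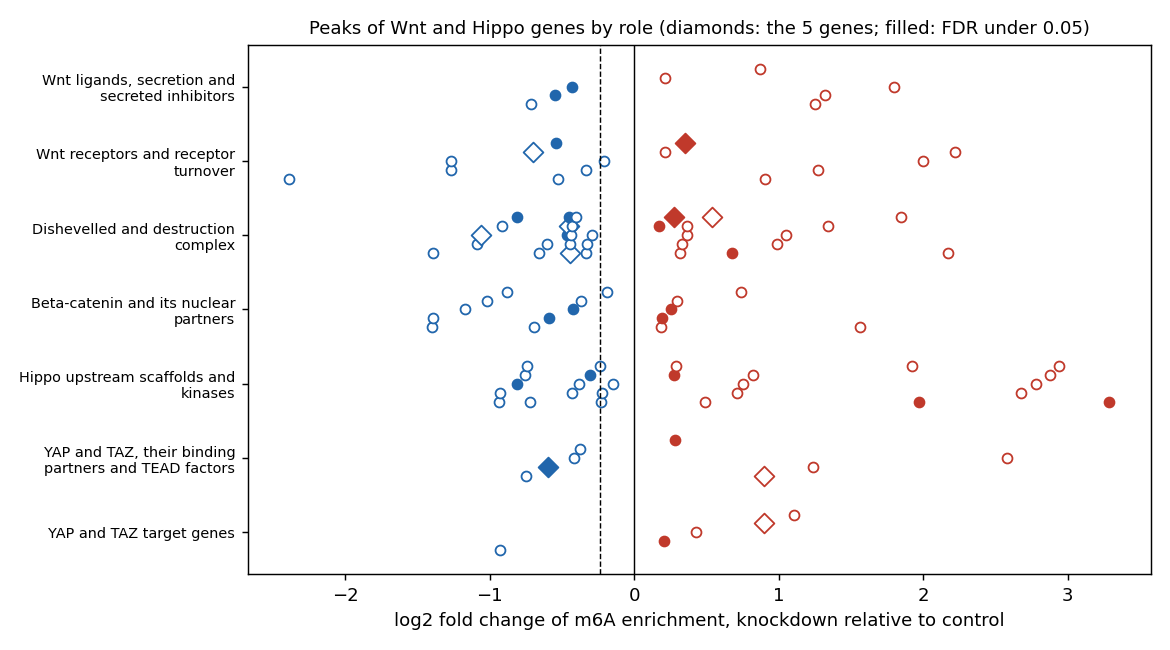
Log2 fold change (x axis) of each peak of the Wnt and Hippo genes, in rows by role; diamonds are the 5 genes, filled symbols have an FDR under 0.05 and the dashed line is the median of all peaks (-0.24). Filled points lie on both sides of 0 in 5 of the 7 rows, and the filled point farthest from 0 is FAT4 at 3.29.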

How the data were processed

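m6A immunoprecipitation sequencing compared METTL3 knockdown with control BCPAP cells, and samples were grouped by their titles. Builds hg38 and GRCh38 and the tools edgeR, StringTie, ChIPseeker, HOMER, HISAT2 and fastp are listed, without roles, per the submitters' processing notes. How differential peaks were called, filtered or pooled is not given in the sources used. The log2 fold change and the p-value of each peak are the authors', per the file headers. The score deposited by the authors is the log10 of the FDR, which was raised back to the linear scale. The sign of the fold change matched the up or down label in 10987 of 10987 peaks.

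Peaks of a gene that share at least 1 base counted as 1 place. Genomic spans, read as deposited, include introns. Gene bounds and start windows came from RefSeq tables of GRCh38.p14, where 5 of the 5 symbols matched and 3 had a start window. Strand came from those windows or, for FZD2 and TEAD1, from the deposited distance to the start. The 5 genes, the wider lists and the rule for named genes (every member peak, list genes with a called peak and close relatives) were chosen with earlier results of these data known. No test was added to those of the authors. Adjusted values were recomputed by the Benjamini-Hochberg method, tested on simulated data. Alternatives were other thresholds, centring, 1 peak per gene and another joining distance. The tools were matplotlib 3.10.9, scipy 1.17.1, numpy 2.4.6 and pandas 2.3.3 under Python 3.11.15. Some results of the gene lists are not reported here.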

Additional observations from a re-analysis of the deposited data

How the results depend on the processing

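FZD2, AXIN1 and TEAD1 stayed called at an FDR under 0.01, which gave 3 member peaks. Recomputed Benjamini-Hochberg values and 1 peak per gene also gave 3, but say little of stability. The recomputed values are less strict, with 2664 of all peaks called against 1883, and lie below the deposited FDRs of these 3 peaks. AXIN1 and TEAD1 have a single peak, so 1 peak per gene could not drop them. An added size of at least 0.5 left 1 of the 3 called member peaks (TEAD1), and a size of at least 1 left 0. Of all 10987 peaks, 1015 were called at an FDR under 0.01, 849 with the size of 0.5 and 314 with the size of 1. Of the Wnt peaks 7 were called at an FDR under 0.01, 5 with the size of 0.5 and 0 with the size of 1. Of the Hippo peaks 7 were called at an FDR under 0.01, 4 with the size of 0.5 and 2 with the size of 1. Centring on the median of all peaks or of the region turned the sign of 0 of the 9 member values, and joining spans within 100 bases left 9 places. The methylation motif could be looked for in the 1 peak that overlaps an available start window, where GGACT was absent and the wider consensus present. The other 8 peaks were not searched. No paired analysis was possible because the deposited table has no values per library, and for the same reason no library could be left out.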

Other observations

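By the authors' own KEGG annotation, 85 peaks on 55 genes carry the Wnt signalling term and 83 peaks on 59 genes the Hippo term, and 32 peaks on 22 genes carry both. APC, AXIN1 and FZD2 carry both terms, TEAD1 the Hippo term, and AMOTL2 neither. In each term 18 peaks were called, 10 lower and 8 higher, which is 21.2% of the Wnt and 21.7% of the Hippo peaks against 17.1% of all peaks. Without the members, 16 of 78 Wnt peaks (20.5%) and 15 of 75 Hippo peaks (20%) were called. The 5' UTR peak of FZD2 had the smallest p of both terms. The cyclin CCND1, a downstream target of both pathways, accounts for 5 of the 10 lower peaks in each, which overlap into 3 places on the gene.

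The following genes, chosen after their values were seen, had called peaks under these terms. NFATC3, a calcium-regulated transcription factor, was higher in an exon at 1.25 and PRICKLE2, of the planar polarity branch, at 0.51, with FDRs of 0.00148 and 0.0269 per the authors' deposited table. PLCB1, a phospholipase of the Wnt calcium branch, was higher at 1.89 with an FDR of 0.0251 per the authors' deposited table. SENP2, a SUMO protease, was lower at -0.41 and SCRIB, a polarity scaffold, at -0.32, with FDRs of 8.13e-05 and 0.0135 per the authors' deposited table.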
